A study of Mus musculus with 6 samples.

Results

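The 40 imprinted protein-coding genes described here were taken by name from a list, 40 of 35865 genes in the files, in RNA-seq libraries of macrophages sorted from digested hearts. An imprinted gene is transcribed mainly from the copy inherited from 1 parent. This follows from DNA methylation laid down in the egg or sperm, which is kept through later cell divisions. The methylation marks the copy of 1 parent at a control region, and the marked copy can be the silent or the expressed copy. Many of these genes act on fetal growth and on cells of mesodermal origin, and in several the choice of copy depends on the tissue or the promoter. Tet2 encodes a dioxygenase that oxidises 5-methylcytosine, a step in the removal of DNA methylation. The deposited values give total RNA per gene or transcript, with no read-out of parental copy or of methylation.

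The libraries came from C57BL/6J mice, with 3 labelled Tet2 KO (Tet2-/-) and 3 labelled Tet2 WT (Tet2+/+). The cells are described as macrophages that arose from donor hematopoietic progenitor cells, and the series title places the work in nonconditioned mice, so hosts that received no conditioning and kept their own blood-forming cells. The labels give no age, no Cre or promoter, no deleted exon and no link between libraries and animals, so the p-values below measure the spread between libraries, which may be technical. Depth ran from 37349505 to 55771087 estimated counts per library.

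The gene targeted in the design, Tet2, stood at 81.1, 82.6 and 78.2 CPM (library-scaled counts, with TMM factors) in the KO libraries and at 57.5, 76.1 and 60.8 CPM in the WT libraries. KO minus WT was 0.32 ± 0.14 on the log2 scale (SE; edgeR adjusted p = 0.159). With the deleted part of Tet2 not stated, its total RNA does not check the genotype. Macrophage genes were present in all 6 libraries, and the summed level of 16 pan-macrophage markers was 38226, 31961 and 34796 CPM in KO and 20403, 27647 and 23677 CPM in WT. The summed level of 18 fibroblast markers was 4305, 2299 and 4025 CPM in KO and 32593, 17453 and 27773 CPM in WT, a ratio of 7.32. All 18 were called lower in KO, against 10.1% of all tested genes. Both marker lists were chosen with earlier results of these data known. In bulk RNA, fewer cells of a type and less RNA per cell cannot be told apart.

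Of the 40 imprinted genes, 35 passed the low-count filter, 7 of them were called lower in KO and 0 were called higher by edgeR's quasi-likelihood test (adjusted p under 0.05). Over all 16386 tested genes 10.1% were called lower, 6.11% higher and 16.2% in either direction. At an unadjusted p under 0.05, 13 of the 35 imprinted genes passed (37.1%), and 28.9% of all tested genes did. The called genes were Peg3, Ndn, Igf2r, Grb10, Nap1l5, Sgce and Impact, with log2 fold changes from -4.09 to -0.65, and they lie in 7 of the 19 imprinted regions followed. The median log2 fold change of the 35 was -0.52, against 0.00 over all tested genes, and 25 were negative and 10 positive, where 49.8% of all tested genes were negative.

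**Figure D1:**
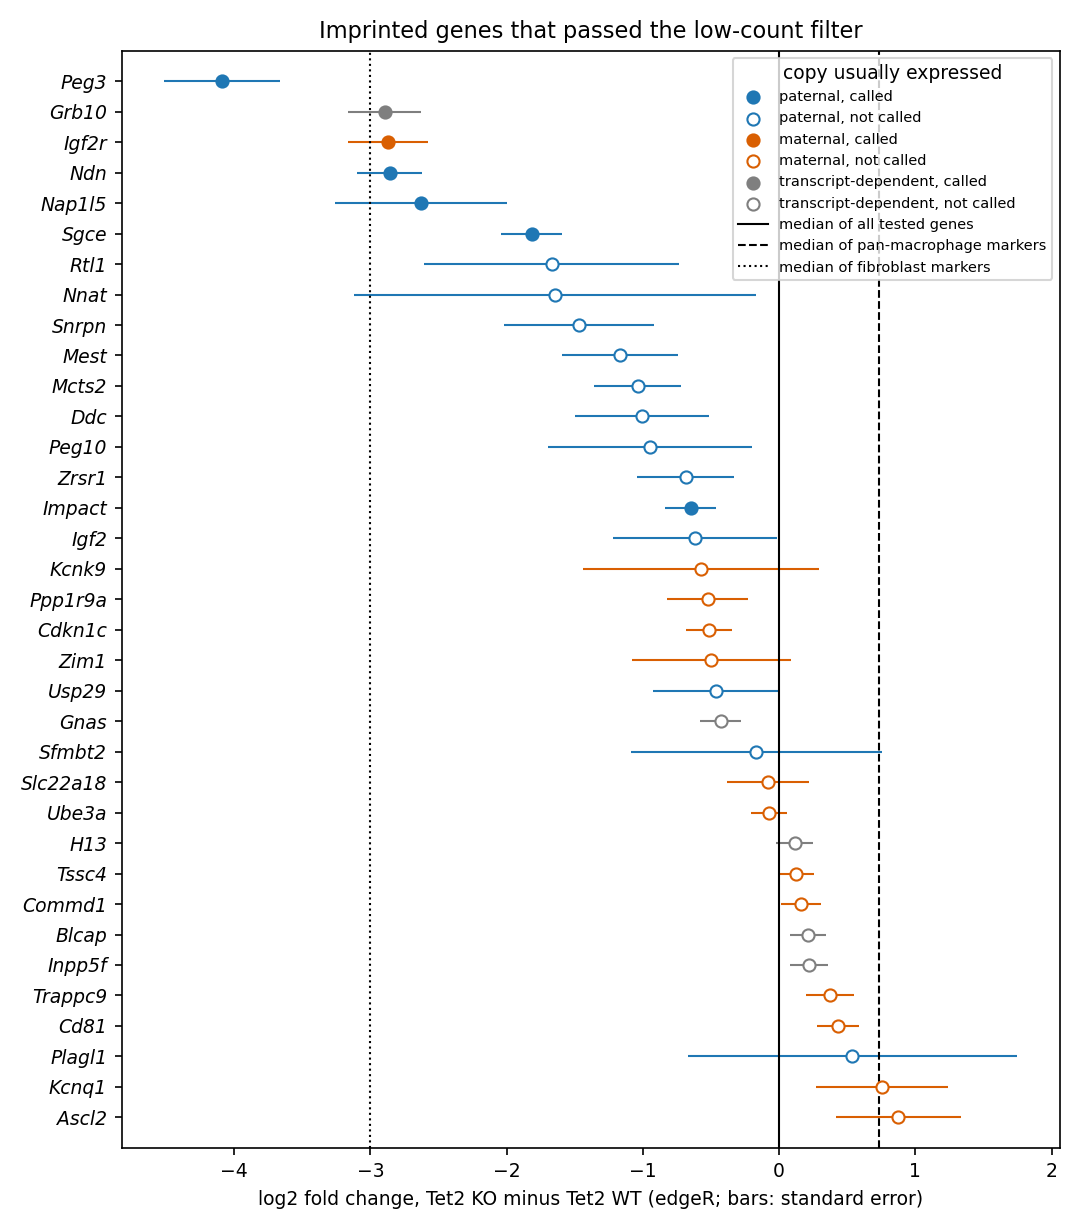
Log2 fold change (x axis, Tet2 KO minus Tet2 WT) of each of the 35 imprinted genes that passed the low-count filter, with the standard error as a bar, coloured by the parental copy that is usually expressed and filled where called. The 7 filled points run from -4.09 (Peg3) to -0.65 (Impact), and vertical lines give the medians of all tested genes (0.00), the pan-macrophage markers (0.74) and the fibroblast markers (-3.01).

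The 7 promoter windows below belong to the genes on which the results below turn. CpG dinucleotides are marked because the methylated base of imprinted control regions sits in them. Whether any of these promoter windows lies in a control region was not examined. Capitals mark each CpG, and every window runs 5′ to 3′ on the gene's own strand, from RefSeq on GRCm38.p6. They are Peg3 (chr7:6730370-6730669, minus strand), Ndn (chr7:62348027-62348326, plus), Nap1l5 (chr6:58907077-58907376, minus), Mcts2 (chr2:152686898-152687197, plus), Igf2r (chr17:12769657-12769956, minus) and the 2 windows of Grb10 (chr11:12037371-12037670 upstream and chr11:12027922-12028221 downstream, both minus).
Peg3: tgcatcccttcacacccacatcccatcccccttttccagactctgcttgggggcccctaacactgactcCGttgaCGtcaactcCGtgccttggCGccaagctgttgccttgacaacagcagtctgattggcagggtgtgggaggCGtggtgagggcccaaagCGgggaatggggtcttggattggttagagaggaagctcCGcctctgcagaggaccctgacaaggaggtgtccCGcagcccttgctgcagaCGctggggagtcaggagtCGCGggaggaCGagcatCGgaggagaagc
Ndn: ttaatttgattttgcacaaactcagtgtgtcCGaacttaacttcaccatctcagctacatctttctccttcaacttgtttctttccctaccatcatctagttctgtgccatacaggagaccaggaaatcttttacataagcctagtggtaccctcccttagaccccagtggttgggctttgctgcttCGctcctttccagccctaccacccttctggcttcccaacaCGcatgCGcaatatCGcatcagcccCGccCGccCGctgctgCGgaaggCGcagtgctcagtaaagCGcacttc
Nap1l5: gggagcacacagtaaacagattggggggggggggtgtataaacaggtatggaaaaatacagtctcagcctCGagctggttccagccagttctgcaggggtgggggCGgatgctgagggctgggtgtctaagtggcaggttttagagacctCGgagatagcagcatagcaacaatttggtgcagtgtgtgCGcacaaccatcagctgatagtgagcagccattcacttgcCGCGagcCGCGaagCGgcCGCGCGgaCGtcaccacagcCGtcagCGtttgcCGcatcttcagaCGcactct
Mcts2: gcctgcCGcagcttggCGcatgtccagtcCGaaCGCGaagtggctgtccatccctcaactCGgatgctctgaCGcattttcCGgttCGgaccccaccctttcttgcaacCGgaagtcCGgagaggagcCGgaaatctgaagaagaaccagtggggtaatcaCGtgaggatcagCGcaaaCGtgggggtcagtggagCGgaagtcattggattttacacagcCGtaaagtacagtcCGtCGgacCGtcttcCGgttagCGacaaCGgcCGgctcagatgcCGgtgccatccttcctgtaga
Igf2r: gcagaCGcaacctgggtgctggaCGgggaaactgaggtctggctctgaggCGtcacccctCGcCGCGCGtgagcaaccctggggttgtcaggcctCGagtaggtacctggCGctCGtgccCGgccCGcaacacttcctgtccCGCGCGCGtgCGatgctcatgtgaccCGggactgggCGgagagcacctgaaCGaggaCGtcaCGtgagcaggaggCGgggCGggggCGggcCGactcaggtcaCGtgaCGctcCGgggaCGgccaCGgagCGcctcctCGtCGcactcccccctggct
Grb10 upstream: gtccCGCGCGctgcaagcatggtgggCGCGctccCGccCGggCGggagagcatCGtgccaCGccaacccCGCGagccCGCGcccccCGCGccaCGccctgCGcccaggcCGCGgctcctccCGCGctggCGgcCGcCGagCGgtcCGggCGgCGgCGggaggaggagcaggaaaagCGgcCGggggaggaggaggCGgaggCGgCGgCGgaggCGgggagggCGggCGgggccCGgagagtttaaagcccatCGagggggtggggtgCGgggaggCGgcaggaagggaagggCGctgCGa
Grb10 downstream: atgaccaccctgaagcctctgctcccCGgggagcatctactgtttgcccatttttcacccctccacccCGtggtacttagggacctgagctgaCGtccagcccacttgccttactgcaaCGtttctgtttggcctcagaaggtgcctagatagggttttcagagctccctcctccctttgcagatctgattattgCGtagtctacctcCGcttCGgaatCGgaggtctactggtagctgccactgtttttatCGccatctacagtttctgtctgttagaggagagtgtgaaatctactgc

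The Grb10 upstream window held 45 CpG and the Igf2r window 34, whereas the Ndn window held 11 and the Grb10 downstream window 9. Peg3 had 13, Nap1l5 17 and Mcts2 25. RefSeq windows were found for 32 of the 40 genes, 49 windows in all, with a median of 17 CpG against 7 in all 32851 windows, and a median ratio of observed to expected CpG of 0.685 against 0.384. The 6 windows of genes called lower had a median of 15 CpG, and the 37 windows of tested genes that were not called had a median of 17. Those 6 windows belong to Peg3, Ndn, Nap1l5, Igf2r and Grb10, since no window was found for Sgce or Impact.

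The 4 short motifs named next were searched on both strands of every window. TGCCGC, the core recognised by the imprint-guarding zinc-finger protein ZFP57, was in 13 of 49 windows (26.5%, against 11.6% of all windows), with 2 matches in the Nap1l5 window and 1 each in the Mcts2 and Grb10 upstream windows. CGCATGCG, the centre of the NRF1 motif, was in 8 windows (16.3% against 1.87%); 5 of these belong to Snrpn and Snurf, and another is that of Ndn. The Snurf window is the same interval as a Snrpn window, so with each interval counted once there are 48 windows, of which 12 hold TGCCGC and 7 hold CGCATGCG, and 2 of the Mest windows share 297 bases. TGACGTCA, the cyclic AMP response element, was in 3 windows (6.12% against 1.79%), among them the Peg3 window and the Usp29 window, which share 263 bases. GCCATNTT, a form of the YY1 motif, was in 2 (4.08% against 6.05%). All motifs but GCCATNTT hold a CpG themselves, and these windows are richer in CpG than most, so the shares describe sequence and nothing about binding.

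Peg3, a paternally expressed zinc-finger gene of mesodermal and brain tissue (chr7:6703892-6730431), showed the lowest fold change of the 35 tested imprinted genes. It measured 2.22, 0.772 and 0.807 CPM in KO and 26.6, 17.6 and 18.9 CPM in WT. No KO library came near a WT library, and the fold change was -4.09 ± 0.43 on the log2 scale (edgeR adjusted p = 0.000296). Ndn, which encodes necdin, a MAGE-family protein that restrains proliferation (chr7:62346569-62350262), measured 8.35, 5.23 and 6.88 CPM in KO and 61.2, 37.1 and 49.9 CPM in WT. The groups were again far apart, a log2 difference of -2.86 ± 0.24 (edgeR adjusted p = 0.000105). Both genes are expressed from the paternal copy and both lie on chromosome 7, in separate imprinted domains.

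Of the genes that limit growth signalling, Igf2r and Grb10 were both lower in KO. Igf2r, the receptor that carries IGF2 and lysosomal enzymes to the lysosome (chr17:12682406-12769664, maternal copy), measured 4.87, 10.1 and 7.45 CPM in KO and 72.9, 43.2 and 48.6 CPM in WT. On the log2 scale the fold change was -2.87 ± 0.30 (edgeR adjusted p = 0.000296). Grb10, an adaptor that damps insulin and IGF1 receptor signalling (chr11:11930508-12038683), measured 2.97, 3.89 and 3.12 CPM in KO and 30.6, 16.5 and 27.3 CPM in WT. The fold change was -2.90 ± 0.27 in log2 units (edgeR adjusted p = 0.000164), and the KO libraries lay within 1 CPM of each other. The ligand Igf2 was scarce, at 0.289, 1.42 and 0.583 CPM in KO and 1.18, 0.833 and 1.52 CPM in WT, with overlapping groups and a log2 difference of -0.62 ± 0.60 (edgeR adjusted p = 0.568).

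Sgce, which encodes epsilon-sarcoglycan of the dystrophin-associated complex (chr6:4674350-4747207, paternal copy), measured 21.6, 17.9 and 24.4 CPM in KO and 92.2, 51.4 and 81.5 CPM in WT. KO minus WT was -1.82 ± 0.22 in log2 units (edgeR adjusted p = 0.000618). Nap1l5, an intronless gene of the nucleosome assembly protein family (chr6:58905233-58907076, paternal copy), was rare, with 4, 11 and 24 estimated counts in KO and 137, 55 and 76 in WT. That is 0.115, 0.214 and 0.460 CPM against 2.61, 0.989 and 1.40 CPM, a log2 difference of -2.63 ± 0.63 (edgeR adjusted p = 0.0196). Nap1l5 passed the low-count filter through the WT libraries. Its call was lost when KO replicate 1, KO replicate 2 or WT replicate 1 was left out, at -2.30, -2.48 and -2.14.

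Impact, which encodes an inhibitor of the amino-acid sensing kinase GCN2 (chr18:12955852-12992950, paternal copy), changed least of the called genes. It measured 28.9, 36.6 and 38.2 CPM in KO and 66.5, 54.9 and 41.4 CPM in WT, and the highest KO library was close to the lowest WT library. The log2 fold change of -0.65 ± 0.19 was just past the threshold (edgeR adjusted p = 0.0441). It was called in 6 of 19 alternative settings, with adjusted p from 0.00291 to 0.707, and its call was lost on leaving out any library other than WT replicate 3, with values from -0.73 to -0.46.

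**Figure D2:**
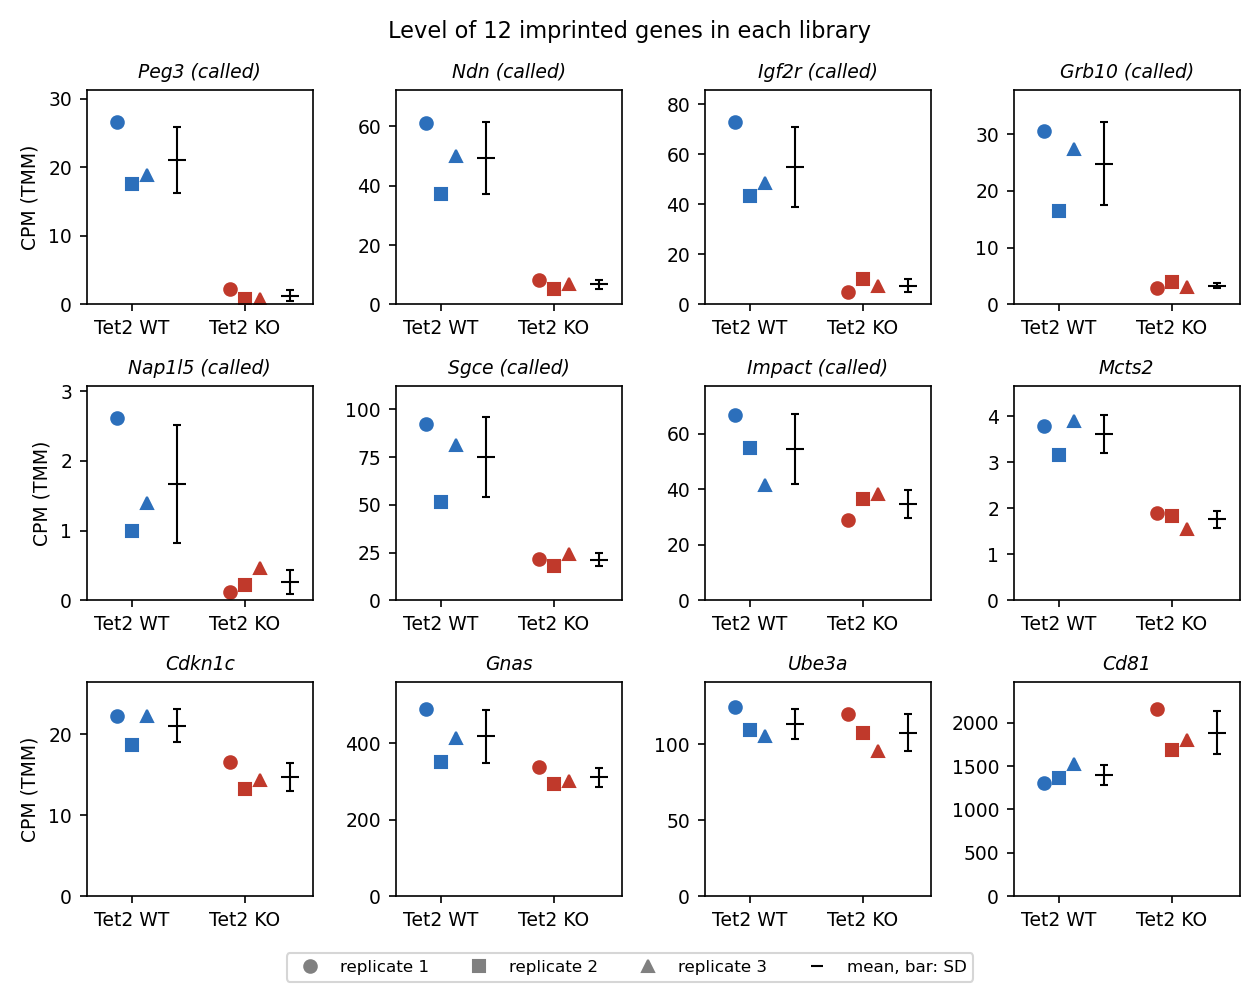
CPM (y axis, linear and starting at 0, a separate scale in each panel) of 12 imprinted genes in each library, with the mean and SD of each group beside the points. The KO points of Peg3, Ndn, Igf2r, Grb10, Nap1l5 and Sgce lie well below the WT points, those of Impact lie just below, those of Ube3a overlap, and those of Cd81 (1684 to 2159) lie above the WT points (1301 to 1529).

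By the copy usually expressed, 5 of 17 tested paternally expressed genes were called lower, where 10.1% of all tested genes were. A negative fold change was seen in 16 of the 17, where 49.8% of all tested genes were negative, and the median was -1.04. Of 13 tested maternally expressed genes 1 (Igf2r) was called lower, 7 were negative and 6 positive, and the median was -0.07. Of the 5 genes whose copy depends on the transcript, 1 (Grb10) was called. The libraries did not overlap between groups, with KO lower, for 12 of the 35 genes, where 18.1% of all tested genes did so. They did not overlap with KO higher for 4 genes (Ascl2, Cd81, Tssc4 and Inpp5f), where 16.5% of all tested genes did so. On the TPM scale all 4 overlapped, and 13 of the 35 genes did not overlap with KO lower and 0 with KO higher. The shares of all tested genes were not computed on that scale. The median of all tested genes lay at -0.15 there (limma on log2(TPM + 0.1)). A test of the difference between paternally and maternally expressed genes was not made. The classes were not matched for level. Some paternally expressed genes under 10 CPM had fold changes about as large as their standard error, such as Igf2 (-0.62 ± 0.60) and Usp29 (-0.46 ± 0.46).

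Calls were counted by level of the gene as well. Of the 16 imprinted genes with a mean of at least 10 CPM, 6 were called lower, and of the 19 tested genes below that mean 1 was called. Over all tested genes 9.04% of those at or above that mean and 11.5% of those below it were called lower. The other 18 of the 19 had log2 fold changes from -1.67 to 0.87, and 15 of them were negative. Among them were Snrpn, which encodes a spliceosomal protein, at -1.47 ± 0.55 (edgeR adjusted p = 0.108), Mcts2 at -1.04 ± 0.32 (edgeR adjusted p = 0.0531) and Mest, a hydrolase-fold gene, at -1.17 ± 0.43 (edgeR adjusted p = 0.0974). The other 5 genes did not pass the filter. Magel2 and Phlda2 had 0 counts in every library, which at 3 counts allows up to 0.0541 to 0.0809 CPM, and Dlk1, Snurf and Zdbf2 had at most 5.5, 0.1 and 19 counts in a library. Snurf and Snrpn lie in shared transcripts, so reads between them cannot be told apart.

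Per unit of length, the same 4 genes stood highest in every library, in the order Cd81, Gnas, Commd1 and H13. Ube3a came next in 4 libraries, and Sgce was above it in WT replicates 1 and 3. TPM ranged over the 6 libraries from 1360 to 2062 for Cd81, a tetraspanin, 231 to 445 for Gnas, 92.8 to 142 for Commd1, a copper and endosome trafficking protein, 66.6 to 95.1 for H13, the signal peptide peptidase, and 53.9 to 78.3 for Ube3a, a ubiquitin ligase. Commd1 and H13 overlapped in this order, as did H13 and Ube3a. None of these 5 was called. In CPM, Ube3a measured 120, 107 and 95.6 in KO and 124, 109 and 106 in WT (log2 fold change -0.07 ± 0.13; edgeR adjusted p = 0.782), and H13 measured 144, 109 and 126 in KO and 123, 109 and 118 in WT (0.12 ± 0.14; edgeR adjusted p = 0.643).

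Further genes of at least 10 CPM also missed the threshold. Commd1 measured 63.6, 45.3 and 57.3 CPM in KO and 50.8, 50.1 and 47.8 CPM in WT, at 0.16 ± 0.15. Blcap, an apoptosis-related gene, measured 37.5, 35.3 and 36.9 against 35.4, 29.7 and 29.6 CPM, at 0.21 ± 0.13. Tssc4, a splicing factor, measured 27.2, 27.0 and 26.3 against 25.0, 24.6 and 24.1 CPM, at 0.13 ± 0.13. Trappc9, a component of the TRAPP trafficking complex, measured 57.8, 36.4 and 51.2 against 36.6, 35.2 and 40.4 CPM, at 0.37 ± 0.18. These 4 had edgeR adjusted p-values of 0.541, 0.354, 0.592 and 0.197, and scaled to the pan-macrophage markers all 4 turned negative, as did H13, Inpp5f and Cd81, where the median of all genes moved to -0.71.

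Within the large domain on chromosome 7 that holds Igf2, Kcnq1, Cdkn1c and Cd81, genes listed as maternally expressed had fold changes of opposite sign. Which copy these cells express was not read. Cdkn1c, the cyclin-dependent kinase inhibitor p57, measured 16.6, 13.2 and 14.4 CPM in KO and 22.3, 18.7 and 22.2 CPM in WT (log2 fold change -0.52 ± 0.17; edgeR adjusted p = 0.0662). Cd81 measured 2159, 1684 and 1801 CPM in KO and 1301, 1361 and 1529 CPM in WT (0.43 ± 0.15; edgeR adjusted p = 0.0906). Neither gene was called, and in each the groups did not overlap. As a percent of Cd81 in the same library, a pair picked after its values were seen, Cdkn1c was 0.769, 0.784 and 0.799 in KO and 1.71, 1.37 and 1.45 in WT, a log2 difference of -0.94 ± 0.10 (exact permutation test over libraries, two-sided p = 0.1, the smallest that 3 against 3 can give).

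Among the imprinted genes, 4 are short genes inside a longer host gene, so the same locus can be read within each library. These pairs, like the others below, were picked after their values were seen, and 8 were set up in all, with that of Cdkn1c and Cd81. Ndn and Ube3a, at a distance in the Snrpn domain, formed another, with a log2 difference in their ratio of -2.78 ± 0.25 (exact permutation p = 0.1). Mcts2, a retrotransposed copy of the translation factor gene Mcts1, sits in an intron of H13 on the same strand. Its estimated counts were 1.32%, 1.67% and 1.23% of those of H13 in KO and 3.08%, 2.89% and 3.30% in WT, a log2 difference of -1.15 ± 0.14 (exact permutation p = 0.1). Nap1l5 sits inside Herc3 on the opposite strand and was 1.78%, 3.12% and 6.73% of Herc3 in KO and 48.5%, 18.5% and 18.8% in WT (-2.94 ± 0.72; exact permutation p = 0.1). The hosts themselves were not called, at 0.12 ± 0.14 for H13 and 0.15 ± 0.24 for Herc3 (edgeR adjusted p = 0.756).

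Zrsr1, a retrotransposed splicing-factor gene in Commd1, was 3.68%, 9.28% and 7.22% of its host in KO and 10.2%, 15.8% and 8.63% in WT, and the groups overlapped (-0.83 ± 0.48; exact permutation p = 0.2). Nnat, the proteolipid gene in Blcap, had 0 counts in KO replicate 1 and in WT replicate 3, and no ratio was taken. Reads of Mcts2 and Zrsr1 are shared with the parent genes Mcts1 and Zrsr2, which were at 0.10 ± 0.14 and 0.06 ± 0.18 and were not called (edgeR adjusted p = 0.708 and 0.871). Unspliced H13 RNA that covers Mcts2 cannot be told apart from Mcts2.

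Both remaining close pairs start back to back. Peg3 and Usp29 start 147 bases apart and are both paternally expressed, yet Usp29, a deubiquitinase gene, had 25.7, 100 and 65.0 estimated counts in KO and 121, 106 and 66.5 in WT, with overlapping groups and a log2 difference of -0.46 ± 0.46 (edgeR adjusted p = 0.584). As a percent of Peg3, Usp29 was 33.3, 252 and 154 in KO and 8.70, 10.8 and 6.49 in WT, a log2 difference of 3.68 ± 0.91 (exact permutation p = 0.1). Sgce and Peg10 start 99 bases apart. Peg10, a retrotransposon-derived gene, had at most 74 estimated counts, and its ratio to Sgce overlapped between groups (0.98 ± 0.79; exact permutation p = 0.2).

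**Figure D3:**
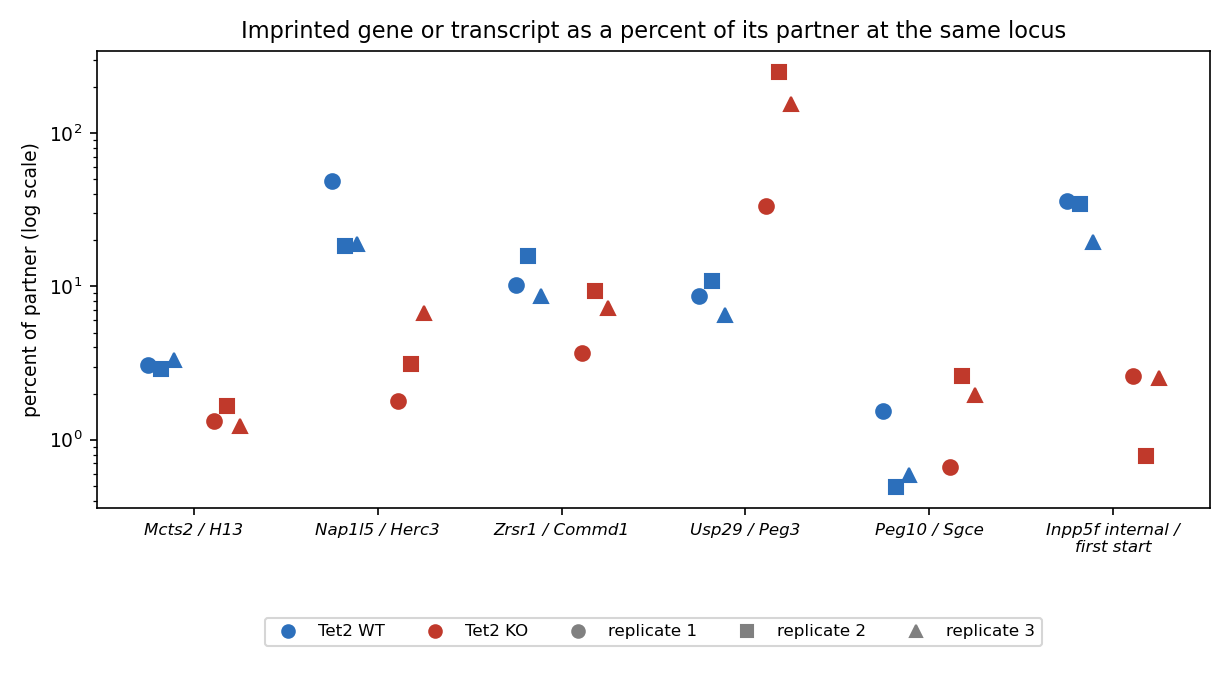
Estimated counts of an imprinted gene as a percent of a partner at the same locus (y axis, log scale) in each library. For Inpp5f the TPM from the internal start, chosen because its groups did not overlap, is given as a percent of the TPM from the first start. KO points lie below WT points for Mcts2 in H13, Nap1l5 in Herc3 and the internal Inpp5f start, lie above them for Usp29 to Peg3, and overlap for Zrsr1 in Commd1 and Peg10 to Sgce.

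Gnas encodes the stimulatory G-protein alpha subunit, and its other promoters give the imprinted NESP55 and XL-alpha-s transcripts. The alpha-subunit start held 98.7% to 99.6% of Gnas TPM in every library. The gene measured 339, 293 and 301 CPM in KO and 490, 352 and 414 CPM in WT, without overlap, and was not called (log2 fold change -0.43 ± 0.15; edgeR adjusted p = 0.0837). Transcripts of Gnas, Grb10 and Mest number 44 in the files, of which 11 were tested and 2 were called lower, both of Grb10, where 2.21% of the 53249 tested transcripts were called lower.

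Among the abundant Gnas transcripts, the groups did not overlap for 1. Gnas-208, the form with a 45-base exon (chr2:174336747-174336791) that Gnas-206 and Gnas-207 lack, measured 132, 116 and 118 TPM in KO and 281, 179 and 244 TPM in WT (log2 fold change -0.82 ± 0.17; edgeR adjusted p = 0.0593, not called), where 16.6% of all tested transcripts were lower in every KO library. Gnas-207 measured 84.2, 67.1 and 75.7 TPM in KO and 91.9, 81.4 and 89.9 TPM in WT, and Gnas-206 measured 62.1, 46.7 and 51.7 against 67.3, 48.3 and 53.5 TPM. Both overlapped between groups, at -0.09 ± 0.12 and 0.05 ± 0.17. Gnas-208 was 47.2%, 50.2% and 47.4% of Gnas TPM in KO and 63.2%, 57.5% and 62.1% in WT (exact permutation p = 0.1). A short transcript with a retained intron, Gnas-213, measured 0.452, 0.248 and 0.453 TPM in KO and 1.96, 1.28 and 1.55 TPM in WT (-1.88 ± 0.57; edgeR adjusted p = 0.159).

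Both main Grb10 starts were lower in KO. Grb10-201, from the upstream window printed above, measured 0.452, 0.895 and 0.417 TPM in KO and 5.24, 2.33 and 5.20 TPM in WT (log2 fold change -2.71 ± 0.45; edgeR adjusted p = 0.0301). Grb10-203, from the downstream window, measured 0.321, 0.0663 and 0.387 TPM in KO and 3.33, 2.20 and 3.03 TPM in WT (-3.36 ± 0.60; edgeR adjusted p = 0.0367). The share of Grb10-203 in the sum of both was 32.2% ± 22.1 in KO and 41.4% ± 6.32 in WT (SD, n = 3 each; exact permutation p = 0.8). Both calls were lost on leaving out KO replicate 1, KO replicate 3, WT replicate 1 or WT replicate 3 and with the replicate number as a block (-2.74 and -3.60), and that of Grb10-203 also without WT replicate 2. With 1 library left out the values ran from -3.18 to -2.49 for Grb10-201 and from -3.79 to -2.90 for Grb10-203. Grb10-207 was not tested and measured 0, 0.338 and 0 TPM in KO and 3.94, 0.620 and 0.858 TPM in WT. Mest-211, from the imprinted start of Mest, measured 0, 0.222 and 1.02 TPM in KO and 1.97, 1.32 and 1.82 TPM in WT (-1.91 ± 1.18; edgeR adjusted p = 0.543).

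Inpp5f, a phosphoinositide phosphatase gene with an internal imprinted start, was looked at per start after its values were seen. The gene measured 36.0, 37.0 and 39.1 CPM in KO and 28.2, 32.8 and 35.3 CPM in WT (log2 fold change 0.22 ± 0.14; edgeR adjusted p = 0.342). Transcripts from the internal start followed here (chr7:128687546-128688489) summed to 0.260, 0.0847 and 0.277 TPM in KO and 2.78, 3.16 and 2.0 TPM in WT, without overlap (exact permutation p = 0.1). This start was taken because its groups did not overlap, so that p-value follows from the choice. The other internal starts all overlapped. Along the gene, their KO means were 0.205, 0.591, 2.96 and 0.759 TPM, against 0.420, 0.172, 3.54 and 0.119 TPM in WT. Transcripts from the first start measured 9.98, 10.8 and 11.0 TPM in KO and 7.66, 9.15 and 10.3 TPM in WT, which overlapped (exact permutation p = 0.2). The internal start came to 1.97% ± 1.03 of the first in KO and 30.0% ± 9.29 in WT (SD, n = 3 each). Its largest transcript, Inpp5f-208, was not called (-4.35 ± 1.04; edgeR adjusted p = 0.0884).

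**Figure D4:**
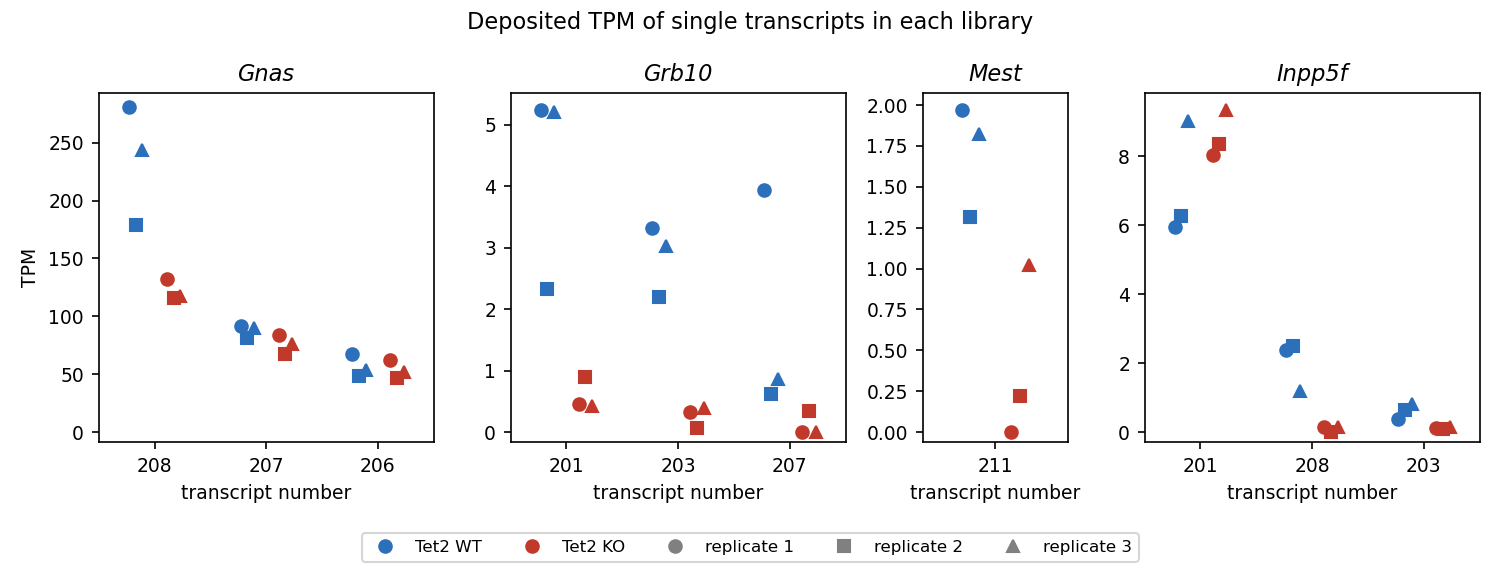
Deposited TPM (y axis, linear, a separate scale per panel) of single transcripts of Gnas, Grb10, Mest and Inpp5f in each library, named by transcript number. KO points lie below WT points for Gnas-208, all 3 Grb10 transcripts, Mest-211 and the internal Inpp5f transcripts 208 and 203, and overlap for Gnas-207, Gnas-206 and Inpp5f-201.

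Markers of other cells moved with genotype beside the imprinted genes. The 13 pan-macrophage markers called of 16 were all higher in KO, and 18 of 18 fibroblast markers were lower, at a median of -3.01 in log2 units. Among all tested genes, 10.1% were called lower and 6.11% higher. The marker lists were chosen with earlier results of these data known, so counts from them may partly follow from the choice. None of the defining fibroblast markers was at 0 in any library. Summed pericyte and smooth muscle markers were 53.0 ± 16.1 CPM in KO and 178 ± 42.4 CPM in WT, with 2 of 10 called lower. Epicardial markers were 14.8 ± 0.789 against 41.7 ± 7.75 CPM (2 of 4 tested called lower), and glial markers 5.83 ± 3.44 against 28.3 ± 9.38 CPM (1 of 3). Cardiomyocyte and endothelial sums overlapped between groups, at 135 ± 35.5 against 153 ± 13.9 and 96.4 ± 22.7 against 88.7 ± 49.6 CPM, and 0 of 10 were called in each list by edgeR (SD, n = 3 for every sum).

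Set against the summed fibroblast markers of the same library, the 7 called genes divided. Ndn differed between KO and WT by -0.13 ± 0.15 in log2 units (exact permutation p = 0.4). Igf2r differed by -0.18 ± 0.60 (exact permutation p = 0.8), Grb10 by -0.14 ± 0.42 and Nap1l5 by -0.05 ± 0.69 (exact permutation p = 1 for both), and in all 4 the groups overlapped. Peg3 stayed lower in every KO library, by -1.49 ± 0.42, whereas Sgce and Impact were higher in every KO library, by 0.94 ± 0.20 and 2.09 ± 0.48 (exact permutation p = 0.1 for each, the smallest possible). On this scale 28 of the 33 tested imprinted genes with a count in every library were higher in KO and 5 lower, and relative to the pan-macrophage markers 31 were lower and 2 higher. The fibroblast sum itself differed by -2.88 in log2 units and the pan-macrophage sum by 0.56. A gene with no change of its own would be higher in KO on the first scale and lower on the second. These counts therefore largely follow from the sums, and the shares over all tested genes were not computed. With the fibroblast sum as a covariate edgeR called 0 imprinted genes and 0 genes in all; 4 imprinted genes and 1528 genes had an unadjusted p under 0.05. That sum does not overlap between the genotypes, so in this fit the covariate and the genotype largely coincide. The part of the fibroblast signal in the changes of these genes was not tested beyond these values.

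**Figure D5:**
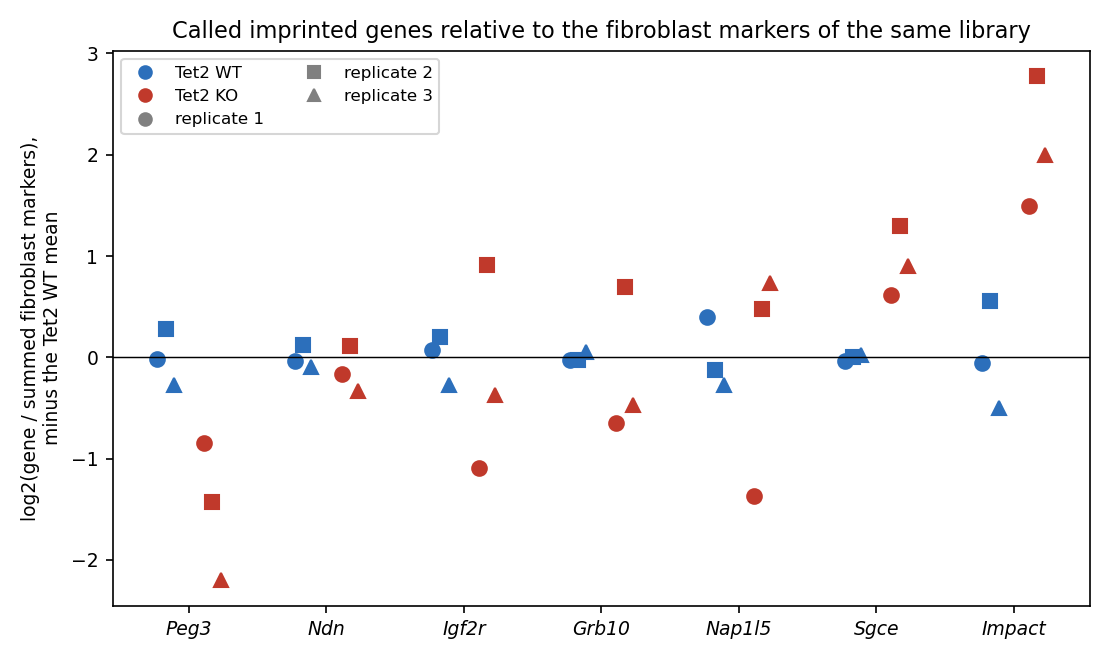
Log2 of the level of each called imprinted gene over the summed fibroblast markers of the same library (y axis), minus the mean of the 3 WT libraries. KO and WT points overlap for Ndn, Igf2r, Grb10 and Nap1l5, and KO points lie below all WT points for Peg3 and above all WT points for Sgce and Impact.

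The neighbours of the imprinted genes were read as well. Of 133 protein-coding neighbours within 250 kb, 91 were tested, 6 were called lower (6.59%) and 5 higher (5.49%), against 10.1% and 6.11% of all tested genes, and no test of that difference was made. Itih5, a hyaluronan-binding protein gene near Sfmbt2, and Col1a2, a type I collagen gene near Sgce and itself a fibroblast marker, had the smallest p-values, at -2.88 ± 0.22 and -3.00 ± 0.22 (edgeR adjusted p = 8.66e-05 for both). A second list, of 32 other genes of imprinted clusters, shares 23 genes with these neighbours, 3 of them called (Osbpl5, Tspan32 and Lsp1). In it 24 were tested, 3 were called lower and 3 higher. Osbpl5, a lipid-transfer gene beside Phlda2, was at -2.85 ± 0.22, Dcn, the proteoglycan decorin and itself one of the fibroblast markers, at -2.92 ± 0.33, and Atp10a, a phospholipid flippase near Ube3a, at -1.31 ± 0.28 (edgeR adjusted p = 9.5e-05, 0.000483 and 0.0112). Tspan32, a tetraspanin of blood cells, was at 1.05 ± 0.20, Gatm, the first enzyme of creatine synthesis, at 0.84 ± 0.18, and Lsp1, a leukocyte actin-binding protein, at 0.55 ± 0.14 (edgeR adjusted p = 0.00717, 0.0113 and 0.0221).

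Of 20 factors that set, keep or remove imprints, 19 were tested, and 1 was called in each direction (5.26% each way). Over all tested genes 10.1% were called lower and 6.11% higher. Of the 19, 16 had a positive and 3 a negative fold change, with a median of 0.21 in log2 units. Dnmt3l, the catalytically inactive partner of the de novo methyltransferases, measured 0.0864, 0.175 and 0 CPM in KO and 1.34, 1.67 and 2.86 CPM in WT (log2 fold change -4.45 ± 0.86; edgeR adjusted p = 0.00737). In KO it lay near the limit that 3 counts set, 0.0541 to 0.0809 CPM, and it passed the filter through the WT libraries. Dnmt3a, a de novo methyltransferase, measured 125, 129 and 119 CPM in KO and 79.4, 84.1 and 106 CPM in WT (0.46 ± 0.14, edgeR adjusted p = 0.0480). That is just past the threshold, and neither call of this list was followed over the alternative settings. Dnmt1, the maintenance methyltransferase, was at 0.21 ± 0.16, and its partner Uhrf1 at 0.55 ± 0.25 (edgeR adjusted p = 0.463 and 0.177). Zfp57 did not pass the filter, at no more than 0.0584 CPM in a library.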

How the data were processed

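Bulk RNA of sorted mouse cardiac macrophages was compared between 3 Tet2 KO and 3 Tet2 WT libraries. Trimming used Trim Galore 0.6.4 and read assignment used kallisto 0.44.0 with GRCm38 transcripts, per the submitters' processing notes; kallisto splits reads that fit several transcripts by a model. Each deposited file holds, per the file headers, an estimated count and a TPM value (a length-corrected share of the library) for every transcript. The annotation release, the sort gate and the strandedness of the libraries are not given in the sources used here.

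GENCODE M21 (GRCm38) holds 116622 of the 118783 transcripts (98.2%) when identifiers are read without version; the other 2161, at most 0.671% of a library's counts, were left out. Summing over 35865 genes and rounding gave the counts per gene, of which edgeR's expression filter kept 16386. The main test was the quasi-likelihood test of edgeR 4.0.16 in R 4.3.3 (TMM scaling, robust fit, genotype as the sole term), adjusted by the Benjamini-Hochberg method across every gene that passed the filter, with 0.05 as the limit for a call. The same test was run over 53249 transcripts. CPM are counts on the TMM scale, but marker sums, and levels relative to them, take the plain total of the library. The standard error of an edgeR fold change is the fold change divided by the root of its F value. For ratios between genes and levels relative to marker sums, it comes from the variance between the libraries of each group. Values with 1 number per library were compared by a two-sided exact permutation test with 20 possible assignments, so that 0.1 is the smallest p. The gene test was tested on simulated data.

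Depth was 37349505 to 55771087 estimated counts. The members, marker lists and pathway lists were chosen with earlier results of these data known. Values in every library are given for members that were called or averaged at least 10 CPM, and for transcripts of Gnas, Grb10 and Mest that were called or reached a mean of 1 TPM in a genotype. From the lists of imprint factors and of other cluster genes the called genes are named, at most 6 by smallest p; other names were chosen after their values were seen. Alternatives were other filters, other scalings, a replicate block, a fibroblast marker covariate, limma 3.58.1 (voom, and log2 of TPM plus 1 or 0.1), DESeq2 1.42.0 and each library left out in turn. Promoter windows of 250 bases before to 50 after a start came from RefSeq (GRCm38.p6). Of 10 listed imprinted noncoding RNAs, 0 were among the genes summed here, so these RNAs were not analysed.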

Additional observations from a re-analysis of the deposited data

How the results depend on the processing

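There were 3 libraries a group, and 19 of the 35 tested genes averaged under 10 CPM; the effect of depth was not tested. By edgeR's quasi-likelihood test 7 imprinted genes were called lower and 0 higher, and 2653 genes in all (1652 lower, 1001 higher). Scaled to the pan-macrophage markers these were 19 imprinted genes lower and 7106 genes (43.3% of all lower, 0.116% higher), and the median of all genes moved to -0.71. With the fibroblast covariate they were 0 and 0, with DESeq2 11 lower and 1 higher (Cd81), where 11.0% and 7.37% of all genes were, with limma on log2(TPM + 1) 1741 genes were lower and 256 higher, and on log2(TPM + 0.1) 1636 lower and 105 higher (1741 in all), where the median of all genes moved to -0.15. Leaving out 1 library gave 5 to 7 imprinted genes lower, 0 to 1 higher (Trappc9, without KO replicate 2), 1382 to 3141 genes in all (1382 without WT replicate 1, 1750 without KO replicate 3) and 0 to 2 transcripts of Gnas, Grb10 and Mest. Leaving out KO and WT replicate 1 together, chosen after seeing the data, gave 5 imprinted genes and 1188 genes in all. Peg3, Ndn, Igf2r, Grb10 and Sgce were called in 18 of 19 alternatives, all but the fibroblast covariate.

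To look for pairing, the deviation of each gene's log2 CPM from its group mean was correlated between KO and WT libraries. These deviations correlated at 0.0333 to 0.107 for same-numbered libraries and at -0.0653 to 0.0135 for others. The numbers are therefore not shown to pair the libraries, although the deviations of each of the 6 libraries correlated best with those of its own number. With the replicate number as a block, 2347 genes and 7 imprinted genes (Snrpn in place of Impact) were called, and 0 transcripts of Gnas, Grb10 and Mest.

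Signs that turned were as follows, and the cause was not tested. With the fibroblast covariate, Cdkn1c was at 0.32, Nap1l5 0.18, Sgce 0.11, Ube3a 0.19, Gnas 0.49 and Tet2 -0.38. Scaled to macrophage markers, Cd81 was at -0.30, Tssc4 -0.59, Blcap -0.52, H13 -0.63, Trappc9 -0.37, Commd1 -0.58, Inpp5f -0.48 and Tet2 -0.38. On log2(TPM + 1) and log2(TPM + 0.1), Tssc4 was at -0.052 and -0.054, H13 -0.063 and -0.064, Commd1 -0.025 and -0.026, Inpp5f -0.041 and -0.043, and Ube3a 0.0067 and 0.0065. Ube3a was at 0.17 with length-scaled counts. With 1 library left out, Ube3a ranged from -0.15 to 0.014, Gnas-206 from -0.055 to 0.20, and, relative to the fibroblast markers (chosen after seeing the data), Igf2r from -0.73 to 0.27, Grb10 from -0.56 to 0.12 and Nap1l5 from -0.44 to 0.61.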
